A study of Mus musculus with 16 samples.

Results

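The 10 genes described are p53 itself (Trp53), 6 of its target genes (Cdkn1a, Mdm2, Ccng1, Bbc3, Sesn2 and Plk2), the stress-induced secreted factor Gdf15, which p53 also activates, and the CDK inhibitors Cdkn2a and Cdkn2b of the senescence programme. Their members were all non-control probes of the array whose accession belongs to one of these genes, whatever their signal, which gave 14 of the 56605 probes. Of the 14, 12 passed the filter on dim probes, with at least 1 kept probe for each gene, and the brightest kept probe stood for its gene. RNA came from the cerebellar cortex of 16 mice of the line B6;129S4-Atmtm1Bal/J, labelled male and 3.5 months old, with 4 mice in each of 4 groups. WT veh and Atm-/- veh mice drank water, and WT NR and Atm-/- NR mice drank water with the NAD+ precursor nicotinamide riboside (NR) at 12 mM, or 3.5 mg/ml, from 6 weeks of age for 2 months. The Atm-/- mice carry a germline mutation of the kinase ATM, present in every cell from conception, and the WT mice were their littermates. A level on an array is that of the whole tissue, in which fewer cells of a type and less RNA per cell cannot be told apart.

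p53 is a transcription factor that is kept scarce by the ubiquitin ligase Mdm2 and is stabilised after DNA damage, when kinases led by ATM phosphorylate it. It then switches on genes that stop the cell cycle (Cdkn1a, which encodes p21, a CDK inhibitor), repair or buffer stress (Sesn2), kill the cell (Bbc3, which encodes PUMA) or shut p53 down again (Mdm2 and Ccng1). Cdkn2a and Cdkn2b block the cyclin D kinases, and Cdkn2a also encodes an inhibitor of Mdm2 from another reading frame. Lasting expression of these CDK inhibitors with a secretory programme marks senescent cells.

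Promoter sequence is shown for Cdkn1a and Trp53, the members with lower signal in Atm-/- NR than in Atm-/- veh described next. The sequences are RefSeq promoters (GRCm38.p6, forward strand), each running from 250 bases before to 50 after the start of a transcript, and capitals mark p53 half-sites, a motif searched by name on both strands, and the GC box GGGCGG. The capitals in the first Cdkn1a sequence and in Trp53 are p53 half-sites, and those in the second Cdkn1a sequence are GC boxes.
Cdkn1a, first start (chr17:29090729-29091028): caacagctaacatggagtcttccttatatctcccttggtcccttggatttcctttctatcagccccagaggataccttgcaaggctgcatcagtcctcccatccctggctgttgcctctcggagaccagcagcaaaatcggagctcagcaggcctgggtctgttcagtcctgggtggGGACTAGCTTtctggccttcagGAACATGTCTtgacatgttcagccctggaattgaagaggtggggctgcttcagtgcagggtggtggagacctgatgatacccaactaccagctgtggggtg
Cdkn1a, second start (chr17:29093519-29093818): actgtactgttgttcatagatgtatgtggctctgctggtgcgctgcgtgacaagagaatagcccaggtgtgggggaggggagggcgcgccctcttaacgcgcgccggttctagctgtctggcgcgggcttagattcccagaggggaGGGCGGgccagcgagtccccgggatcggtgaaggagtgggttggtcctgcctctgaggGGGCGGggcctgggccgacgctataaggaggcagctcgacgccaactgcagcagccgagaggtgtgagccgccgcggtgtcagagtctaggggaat
Trp53 (chr11:69580109-69580408): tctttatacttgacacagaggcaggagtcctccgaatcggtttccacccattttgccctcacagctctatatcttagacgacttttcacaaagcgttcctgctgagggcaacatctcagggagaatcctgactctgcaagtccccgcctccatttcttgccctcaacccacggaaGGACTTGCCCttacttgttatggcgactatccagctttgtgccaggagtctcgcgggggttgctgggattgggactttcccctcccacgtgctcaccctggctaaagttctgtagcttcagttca
The first Cdkn1a promoter held 2 half-sites, beginning 73 and 51 bases upstream of the start with 12 bases between them. Such a pair with at most 13 bases between the sites was found in 24 of 32841 promoters of the same length (0.0731%), and among the 15 promoters of the 10 genes in this Cdkn1a promoter only. A single half-site was found in 8.36% of all promoters and in 4 of the 15, those of Trp53 (beginning 75 bases upstream), Cdkn1a, Mdm2 (186 bases upstream) and Ccng1 (185 bases upstream). The GC box was found in 35.7% of all promoters and in 10 of the 15, and its matches in the second Cdkn1a promoter began 104 and 46 bases upstream. The half-sites and the GC boxes did not overlap in the sequences shown. A match is a description of the letters and not a measured binding site.

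The labels were checked first. Atm, the mutated gene, had 2 kept probes. The dimmer one read 8.63, 8.85, 9.03 and 8.86 (normalised log2 signal) in WT veh, 8.65, 8.53, 8.64 and 8.52 in WT NR, 7.91, 8.08, 7.97 and 7.92 in Atm-/- veh and 7.88, 7.72, 7.85 and 7.83 in Atm-/- NR, with no overlap between the genotypes. Its signal fell by 0.87 (SE 0.08) from WT veh to Atm-/- veh (limma, adjusted p = 3.17e-04), and it remained above background in both groups of Atm-/- mice. For the brighter probe the difference was -0.35 (limma, adjusted p = 0.221). The labelled sex did not hold on 4 arrays, Atm-/- veh 3, Atm-/- NR 4, WT NR 1 and WT NR 4, which had signal for Xist and none for the Y-linked Eif2s3y, Kdm5d and Uty, and the main results are given with and without them where they moved. Each genotype had a slide of its own and each treatment a row of both slides, so genotype and slide, and treatment and row, cannot be told apart. The level of a list of cell type markers on an array is given as the mean of its genes' log2 signals, each centred on that gene's mean over all arrays. Markers of granule cells and Purkinje cells, the defining neurons of the cerebellar cortex (10 of 10 kept in each list), were detected on all 16 arrays. WT veh 4 stood apart with a choroid plexus list (9 of 10 kept) at 4.77, against -0.98 to 0.49 on the other arrays. The number of probes well above background was 39134 to 41905 in Atm-/- veh and 34945 to 37817 in Atm-/- NR, without overlap, and the part of this in the differences below was not tested.

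**Figure D1:**
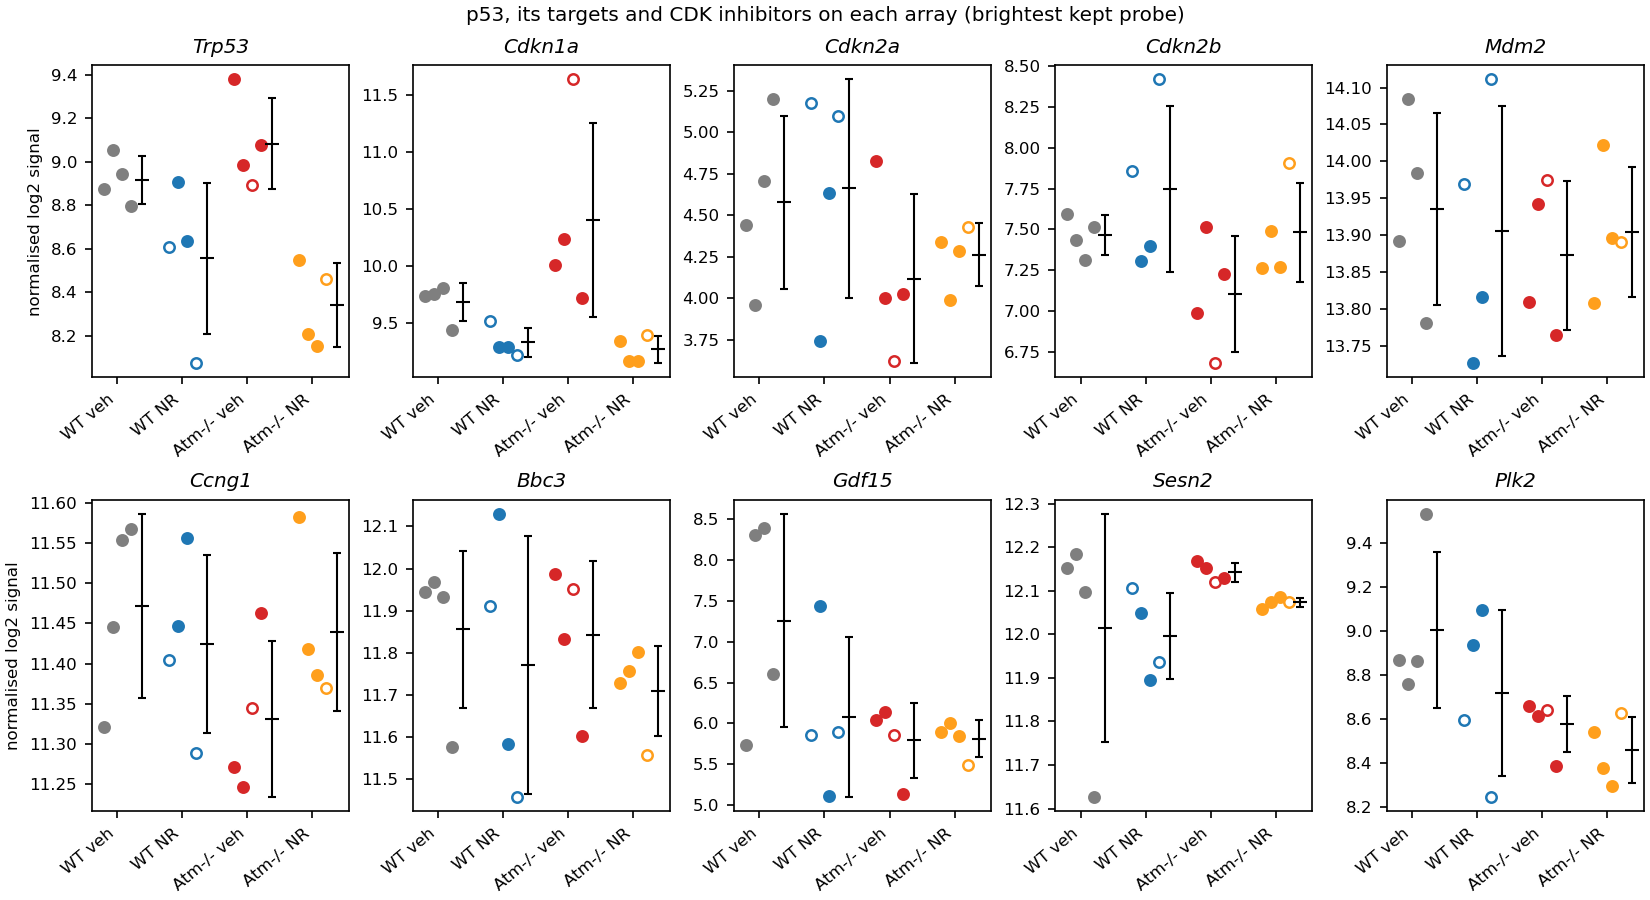
Normalised log2 signal (y axes, scaled separately for each gene) of the brightest kept probe of the 10 genes on each array, in the 4 groups (x axes). Open circles are the 4 arrays whose Xist and Y-linked genes go against the labelled sex, and black bars are group means ± SD (n = 4). Cdkn1a and Trp53 on the Atm-/- NR arrays lay below all Atm-/- veh arrays, as in 10.3% of named genes, and the Cdkn1a value of 11.64 belongs to Atm-/- veh 3.

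Whether NR changed these genes in the Atm-deficient cerebellum was addressed by Atm-/- NR against Atm-/- veh. Cdkn1a and Trp53 fell and no member rose. These 2 of 10 genes stand beside 11.5% of all 16737 named genes called in this comparison, with 6.67% called higher and 4.8% lower, so the count is read on a background in which calls were common. Without Cdkn2a, which was near background, the median difference of the other 9 genes was -0.07 and that of all named genes 0.04, and 4 of the 9 differences were positive and 5 negative. By the brightest kept probe of each gene, only Cdkn1a and Trp53 had an unadjusted p under 0.05, against 30.5% of named genes.

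Cdkn1a encodes p21, which binds cyclin-dependent kinases and holds cells in G1. Its kept probe read 10.01, 10.24, 11.64 and 9.72 in Atm-/- veh. In Atm-/- NR it read 9.34, 9.17, 9.17 and 9.39. All NR arrays were below all veh arrays, as in 10.3% of named genes, the NR values were tightly grouped, and Atm-/- veh 3 was far above the other veh arrays. The means were 10.40 ± 0.85 (SD, n = 4) and 9.27 ± 0.12 (SD, n = 4), a fall by 1.13 on the log2 scale (SE 0.29, 95% CI -1.76 to -0.50), or 2.20-fold (limma, adjusted p = 0.0309). Without Atm-/- veh 3 the difference was -0.72 (adjusted p = 0.0152), and without the 4 arrays of the other sex it was -0.76 (adjusted p = 0.0451), when 0.693% of named genes were called higher and 0.813% lower. The call, though not the direction, was lost without Atm-/- veh 1 (adjusted p = 0.0551), Atm-/- NR 1 (0.0504), Atm-/- NR 2 (0.0741), Atm-/- NR 3 (0.0835) or Atm-/- NR 4 (0.0541), and with only the 2 groups compared in the fit (0.107). Atm-/- veh 3 also had the highest level in its group of the endothelial list (0.51 against -0.16 to -0.02, 10 of 10 markers kept), the microglia list (0.47 against -0.21 to 0.01, 11 of 12 kept) and the blood cell list (1.23 against -0.53 to 0.40, 8 of 12 kept), whose part in its Cdkn1a value was not tested. The second Cdkn1a probe, which carries the accession of another transcript, was well above background only on WT veh 3 and Atm-/- veh 3 and was not tested.

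Trp53 encodes p53. Its probe read 9.38, 8.99, 8.89 and 9.08 in Atm-/- veh. In Atm-/- NR it read 8.55, 8.21, 8.15 and 8.46. No NR array reached the lowest veh array, as in 10.3% of named genes, and no array stood apart in either group. The means were 9.08 ± 0.21 and 8.34 ± 0.19 (SD, n = 4 each), a fall by 0.74 on the log2 scale (SE 0.16, 95% CI -1.08 to -0.40), or 1.67-fold (limma, adjusted p = 0.0165). Without the 4 arrays the difference was -0.84 (adjusted p = 0.0422). The call was lost without Atm-/- veh 1 (adjusted p = 0.0576) or Atm-/- NR 3 (0.0558), and the difference was -0.84 to -0.64 over the 24 settings run on the log2 scale.

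**Figure D2:**
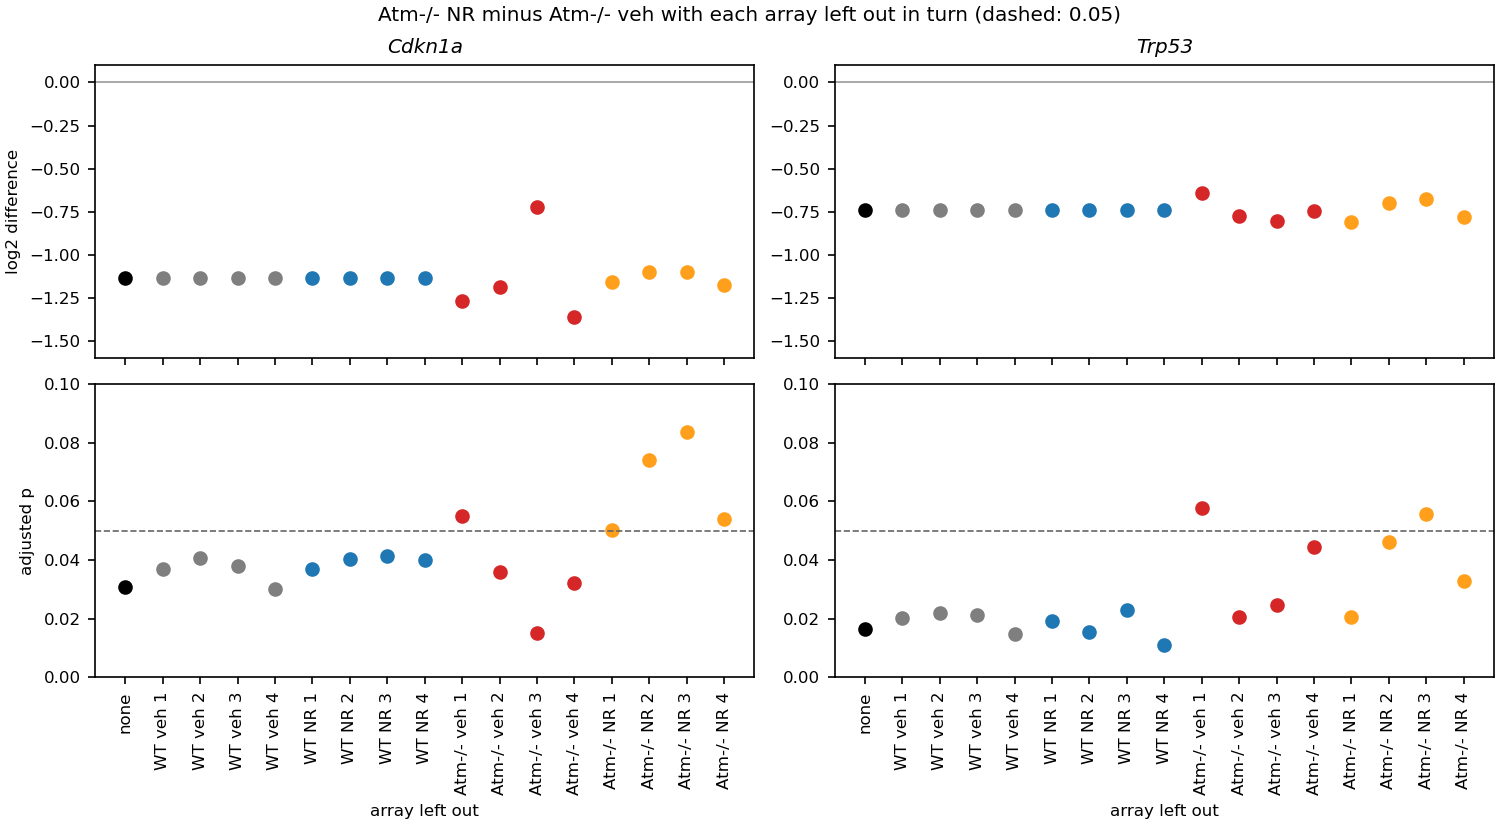
Log2 difference of Cdkn1a (left) and Trp53 (right) between Atm-/- NR and Atm-/- veh (upper panels) and its adjusted p over all probes (lower panels) with no array and with each of the 16 arrays left out in turn (x axes). Points have the colour of the group that lost an array, and the dashed line is at 0.05. Cdkn1a moved from -1.13 to -0.72 without Atm-/- veh 3, and Trp53 stayed between -0.81 and -0.64.

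The targets that feed back on p53 or act downstream of it in death and metabolism did not pass the test. Mdm2, the ligase that degrades p53, was at 13.77 to 13.97 in Atm-/- veh and 13.81 to 14.02 in Atm-/- NR, with a difference of 0.03 (95% CI -0.17 to 0.24), and its dimmer probe gave 0.00 (95% CI -0.38 to 0.38). Ccng1, cyclin G1, which brings a phosphatase to Mdm2, read 11.25 to 11.46 in Atm-/- veh and 11.37 to 11.58 in Atm-/- NR, a difference of 0.11 (95% CI -0.07 to 0.29). Bbc3 read 11.60 to 11.99 and 11.56 to 11.80, a difference of -0.13 (95% CI -0.44 to 0.18). Each of these intervals ended above a fall of 0.5, a smaller size than the fitted differences of Cdkn1a and Trp53. Sesn2, which restrains the growth kinase mTORC1, read 12.17, 12.15, 12.12 and 12.13 in Atm-/- veh and 12.06, 12.07, 12.09 and 12.07 in Atm-/- NR. These groups did not overlap either, as in the 10.3% of named genes with all NR arrays below all veh arrays. The difference was only -0.07 (95% CI -0.29 to 0.15) and did not pass limma's test with the spread of all groups (adjusted p = 0.705). Plk2, a polo-like kinase also induced by neuronal activity, differed by -0.12 (95% CI -0.52 to 0.29), and Gdf15 by 0.02 (95% CI -1.19 to 1.23).

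The CDK inhibitors of the Cdkn2 locus did not pass the test. Cdkn2b encodes p15, which binds CDK4 and CDK6. Its brighter probe read 6.99, 7.52, 6.68 and 7.23 in Atm-/- veh and 7.27, 7.49, 7.27 and 7.91 in Atm-/- NR, a difference of 0.38 (SE 0.23, limma, adjusted p = 0.315), which was 0.24 without Atm-/- veh 3 and 0.096 without the 4 arrays against the labelled sex. Its dimmer probe read 6.73, 7.31, 6.06 and 7.02 and then 7.19, 7.50, 7.49 and 7.34, a difference of 0.60 (SE 0.21, adjusted p = 0.0922, unadjusted p = 0.0144). On both probes Atm-/- veh 3, the array with the highest Cdkn1a, had the lowest value of its group. Cdkn2a, which encodes p16 and p19Arf, was near background. Its kept probe was well above background on 2 of 4 arrays in WT veh, 2 of 4 in WT NR, 4 of 4 in Atm-/- veh and none of 4 in Atm-/- NR, at 3.62 to 5.20 over all 16 arrays. It passed the filter through Atm-/- veh alone, where its mean of 4.12 ± 0.51 was the lowest of the 4 groups, and no difference from Atm-/- NR is given. Its other probe, normalised over all non-control probes because it was not kept, was well above background on 1 array, Atm-/- NR 3, at 7.48. It lay between 2.19 and 3.07 on the other 15. Both probes carry the same accession, so p16 and p19Arf cannot be told apart.

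**Figure D3:**
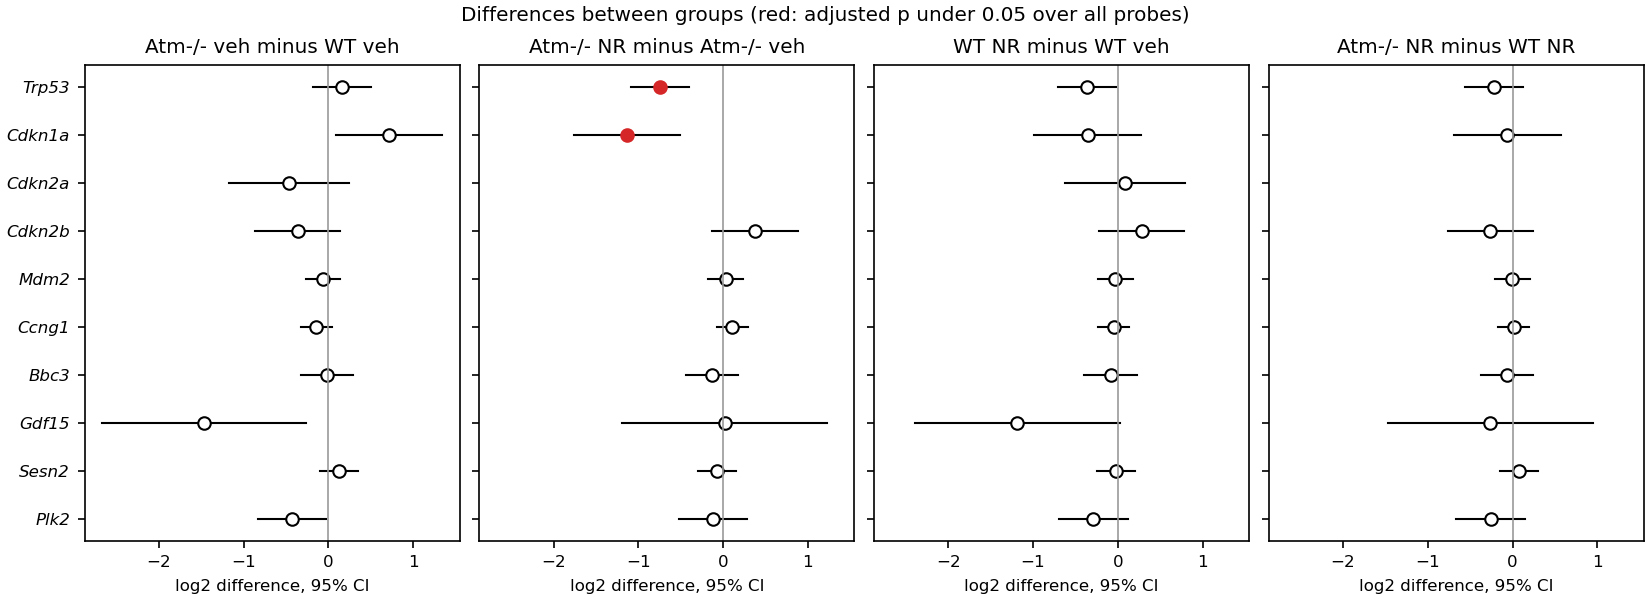
Log2 difference (x axes, points) with its 95% CI (lines) for the 10 genes (y axis) in 4 comparisons of groups (panels), from 1 limma fit over all 16 arrays. Red points passed an adjusted p of 0.05 over all 37253 probes: Trp53 at -0.74 and Cdkn1a at -1.13 in Atm-/- NR minus Atm-/- veh. Cdkn2a is near background, and is left out of the panels with Atm-/- NR, where no array had it well above background.

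Whether the loss of ATM changed these genes in mice without NR was addressed by Atm-/- veh against WT veh. None of the 10 genes passed the test (limma, smallest adjusted p = 0.273), in a comparison that called 0.0538% of named genes, and 3 of 10 had an unadjusted p under 0.05, against 16.8% of named genes. Cdkn1a read 9.74, 9.76, 9.81 and 9.44 in WT veh, a group that overlapped with Atm-/- veh through Atm-/- veh 4 alone. The difference was 0.72 (SE 0.29, 95% CI 0.09 to 1.35, adjusted p = 0.296), and it was 0.31 without Atm-/- veh 3. Trp53 differed by 0.17 (95% CI -0.18 to 0.51). Gdf15 read 5.74, 8.31, 8.39 and 6.60 in WT veh and 6.04, 6.14, 5.86 and 5.13 in Atm-/- veh. WT veh 2 and WT veh 3 were high and the other 2 WT veh arrays were nearer to Atm-/- veh, and the difference of -1.47 (SE 0.56, 95% CI -2.68 to -0.26) did not pass (adjusted p = 0.273). Plk2 read 8.87, 8.76, 8.87 and 9.53 in WT veh and 8.66, 8.62, 8.64 and 8.39 in Atm-/- veh. All Atm-/- veh arrays were below all WT veh arrays, as in 4.84% of named genes, with a difference of -0.43 (SE 0.19, adjusted p = 0.319). It was -0.25 without WT veh 4, the array with the high choroid plexus list. The dimmer Cdkn2b probe, which did not enter the counts of genes, differed by -0.64 (SE 0.21, limma, adjusted p = 0.234, unadjusted p = 0.0101). On that probe Atm-/- veh 3 was the lowest of its group, and its difference without that array is not given. The brighter Cdkn2b probe differed by -0.36 (SE 0.23, adjusted p = 0.492), or -0.22 without Atm-/- veh 3. Mdm2, Ccng1, Bbc3 and Sesn2 differed by -0.14 to 0.13, and Sesn2, the highest of these, was at -0.0024 without WT veh 4.

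In WT mice, WT NR against WT veh called no gene of the 16737 (limma, 0% called, with 1479 at an unadjusted p under 0.05), and 1 of the 10 members had an unadjusted p under 0.05, against 8.84% of named genes. That member was Trp53, which read 8.61, 8.91, 8.64 and 8.08 in WT NR against 8.88, 9.06, 8.94 and 8.80 in WT veh, a difference of -0.36 (SE 0.16, adjusted p = 0.637). WT NR 4, one of the arrays against the labelled sex, was the lowest, and the difference was -0.20 without it and -0.15 without the 4 arrays. Cdkn1a read 9.52, 9.29, 9.29 and 9.22 in WT NR, with only WT NR 1 above the lowest WT veh array, a difference of -0.36 (SE 0.29, 95% CI -0.99 to 0.27, adjusted p = 0.835). Gdf15 read 5.85, 7.44, 5.11 and 5.90 in WT NR, with a difference of -1.19 (SE 0.56, adjusted p = 0.665). Both Cdkn1a and Trp53 thus had negative estimates of the NR difference in each genotype. The difference between the genotypes in the NR effect was -0.78 for Cdkn1a (SE 0.42, 95% CI -1.67 to 0.11, unadjusted p = 0.0823) and -0.38 for Trp53 (SE 0.23, 95% CI -0.86 to 0.10, unadjusted p = 0.114). Without Atm-/- veh 3 the value for Cdkn1a was -0.37, and without the 4 arrays it was -0.37 for Cdkn1a and -0.70 for Trp53. Neither passed (limma, adjusted p = 0.839 for both with all arrays), no gene of the 16737 did (0% called, with 998 at an unadjusted p under 0.05), and the data do not show that the response of these genes depended on genotype. Under NR, Atm-/- NR against WT NR, which called 0.0597% of named genes, gave no call among the members, with Cdkn1a at -0.06 (95% CI -0.69 to 0.57) and Trp53 at -0.21 (95% CI -0.56 to 0.13), or -0.47 without the 4 arrays. Averaged over veh and NR, the genotype comparison called 0.221% of named genes and none of the 10 members, of which 2 had an unadjusted p under 0.05, against 13.1% of named genes. These were Plk2 at -0.34 (limma, adjusted p = 0.303) and Gdf15 at -0.87 (limma, adjusted p = 0.38).

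By group means, Cdkn1a was highest in Atm-/- veh (10.40), followed by WT veh (9.69), WT NR (9.33) and Atm-/- NR (9.27), and Trp53 had the same order at 9.08, 8.92, 8.56 and 8.34. Neighbouring groups in these orders did not differ by the test. Over the 16 arrays the correlation of Cdkn1a with Trp53 was r = 0.52, and it was 0.80 without Atm-/- veh 3, where Cdkn1a was high and Trp53 was the lowest of its group. With each group centred on its own mean it was -0.15, and 0.31 without Atm-/- veh 3, so that the value among mice of a group depended on that array. Among the 45 pairs of members, 24 correlations were positive, 5 were over 0.5 and 5 under -0.5. The arrays share their slides, rows and normalisation, and these correlations are a description.

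**Figure D4:**
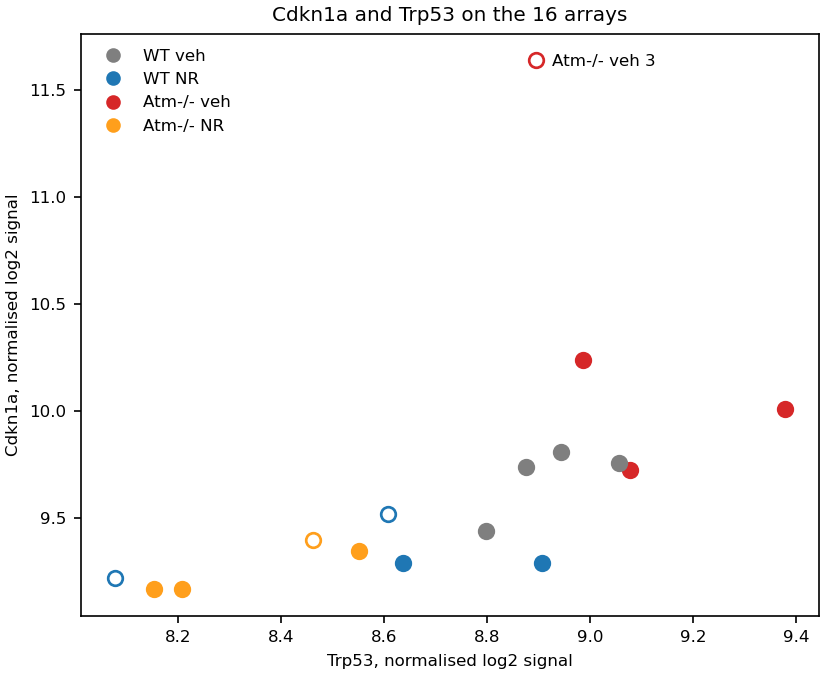
Normalised log2 signal of Cdkn1a (y axis) against Trp53 (x axis) on the 16 arrays, coloured by group, with open circles for the 4 arrays against the labelled sex. The Atm-/- NR arrays sit at the lower left with Trp53 at 8.15 to 8.55, and Atm-/- veh 3 lies alone at the top with Cdkn1a at 11.64.

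The named genes with the pattern most like that of Cdkn1a over the 16 arrays were Pnpla2, the lipase of stored triglyceride (r = 0.97, and 0.89 without Atm-/- veh 3), Pml, the scaffold of nuclear bodies (0.92 and 0.81), Wdr92 (0.92 and 0.69), Nbl1, a secreted BMP antagonist (0.91 and 0.79), and Slc25a37, the mitochondrial iron importer mitoferrin (0.91 and 0.61). Part of each likeness thus came from that array. In Atm-/- NR against Atm-/- veh, Pnpla2 fell by 0.60 (limma, adjusted p = 0.0256) and Nbl1 fell by 0.60 (adjusted p = 0.0346), and the other 3 did not pass. These genes were picked for their likeness to Cdkn1a on the same arrays. Their falls thus follow in part from that choice and are no separate support for the fall of Cdkn1a. The genes most like Trp53 were Izumo4 (r = 0.93), Commd4 (0.90) and Inha, the inhibin alpha subunit (0.89), and each kept an r of at least 0.86 without WT NR 4, the array farthest from the median of Trp53.

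The wider pathway was described with 7 lists of other genes, each gene by its brightest kept probe. In Atm-/- veh against WT veh, WT NR against WT veh, Atm-/- NR against WT NR, the difference of the NR effects and the genotype average, no gene of any list was called. In the same order, these comparisons called 0.0538%, 0%, 0.0597%, 0% and 0.221% of named genes. The absence of calls is thus near the share over all genes and is not a result about the lists. The calls in Atm-/- NR against Atm-/- veh are to be read against 6.67% of named genes called higher and 4.8% lower. Each gene named as changed was fitted under 24 settings of the processing and of the arrays left out, the reported one included (23 for Cdk2), and the number in which it was called is given for each.

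Among the p53 family and the regulators of p53, 3 of 30 tested genes rose and 2 fell, with a median difference of 0.01. Kmt5a, the methyltransferase that modifies p53 and histone H4, rose by 0.53 (SE 0.08, limma, adjusted p = 0.00574), from 12.37 ± 0.14 to 12.90 ± 0.07 (SD, n = 4 each). It was called in 24 settings, and its 3 dimmer probes differed by 0.00 to 0.15. The ribosomal proteins Rpl5 and Rpl11, which bind and block Mdm2 when ribosome assembly fails, rose by 0.25 (adjusted p = 0.0444, called in 9 settings) and 0.22 (adjusted p = 0.0294, called in 17). Prmt5, an arginine methyltransferase acting on p53, fell by 0.44 (SE 0.08, adjusted p = 0.011, called in 23 settings), with its dimmer probe at -0.32. Ep300, an acetyltransferase and coactivator, fell by 0.36 (adjusted p = 0.0483, called in 8 settings), while its dimmer probe differed by 0.12. In Atm-/- veh against WT veh the ends of this list were Ppp1r13b at 0.31 and Twist1 at -0.42, neither called. The dimmer Ppp1r13b probe, which did not enter the counts, differed by 0.20 in that comparison. In Atm-/- NR against Atm-/- veh it differed by -0.32 (limma, adjusted p = 0.0404).

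Among other p53 targets in arrest and growth control, 1 of 20 fell and none rose. That gene was Ddit4, which like Sesn2 restrains mTORC1, and it fell by 0.77 (SE 0.22, limma, adjusted p = 0.0426, called in 12 settings). The widest estimates of the list, Psrc1 at 1.06 (SE 0.76) in this comparison and Rprm at -1.47 (SE 0.95) and Gadd45a at 0.68 (SE 0.40) in Atm-/- veh against WT veh, did not pass. Among the targets in cell death none of 18 was called, with Bax at -0.25 (adjusted p = 0.264, dimmer probe -0.03) and Dapk1 at 0.78 (adjusted p = 0.243) at the ends of the list. In Atm-/- veh against WT veh the ends were Dapk1 at -0.65 and Ei24 at 0.34.

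Among targets in DNA repair and metabolism, 4 of 29 fell and 1 rose, with a median difference of -0.07. The genes that fell were Fdxr, the ferredoxin reductase of mitochondria (-0.37, limma, adjusted p = 0.0472), Sco2, which assembles cytochrome c oxidase (-0.34, adjusted p = 0.0404), Cpt1c, the neuronal carnitine palmitoyltransferase (-0.37, adjusted p = 0.0363, with its dimmer probe at -0.07), and Dcxr, a carbonyl reductase (-0.54, adjusted p = 0.0494). Polk, a translesion DNA polymerase, rose by 0.44 (adjusted p = 0.0211), with its other probes at -0.18 and 0.44. Fdxr and Dcxr were called in 9 settings each, Sco2 in 13, Cpt1c in 16 and Polk in 19. The 4 genes that fell act in metabolism and the 1 that rose in DNA repair, but this split depended on the processing. With scaling to the 75th percentile, 3 of 29 were called higher and 2 lower (10.3% and 6.9%, against 8.28% and 5.26% of named genes). Without Atm-/- veh 3, 1 was called higher and 1 lower (3.45% each, against 4.25% and 3.87% of named genes). Both sets of counts are near the shares over named genes. Without the 4 arrays against the labelled sex none was called, against 0.693% of named genes called higher and 0.813% lower. In Atm-/- veh against WT veh the ends of this list were Dcxr at 0.38 and Ndrg1 at -0.30.

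Among the other CDK inhibitors, cyclins, kinases and RB family, 5 of 26 fell and none rose, a share of 19.2% against 4.8% of named genes. Rbl2 (p130), the pocket protein of resting cells, fell by 0.69 (SE 0.13, limma, adjusted p = 0.0114), and its partner E2f4 fell by 0.76 (SE 0.19, adjusted p = 0.028). E2f5 fell by 0.29 (adjusted p = 0.0478), Cdk4 by 0.28 (adjusted p = 0.0447) and Cdk2 by 0.51 (adjusted p = 0.0449). Rbl2 was called in 23 settings and E2f4 in 18, but E2f5 in 9, Cdk4 in 8, with its other 2 probes at -0.30 and -0.31, and Cdk2 in 9, with a difference of -0.70 to -0.15 over its 23 settings. The members that fell thus include repressors of the cell cycle and kinases that drive it. The share was 15.4% with scaling to the 75th percentile, against 5.26% of named genes called lower, and 7.69%, or 2 of 26, with normexp background correction, against 5.2% of named genes. Not called were Cdkn3 at 0.88 and E2f2 at -0.83, and in Atm-/- veh against WT veh E2f2 at 0.46 and Ccnd2 at -1.16 (adjusted p = 0.252).

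Of the secreted factors and surface markers of senescent cells, 40 of 56 had a kept probe, and Il6, Il1a, Il1b, Mmp3, Csf2 and Icam1 were among the 16 that did not. Of the 40, 1 fell and none rose, and the median difference was -0.26, against 0.04 for all named genes, with 11 of 40 positive. In the same comparison the median difference was -0.23 for the microglia list and -0.21 for the endothelial list, both of which were highest on Atm-/- veh 3 among the Atm-/- veh arrays, and their part in the median of the secreted factors was not tested. Tgfb1, which drives arrest through Cdkn2b in many cells, fell by 0.82 (SE 0.15, limma, adjusted p = 0.00943), from 7.79 to 6.97, and was called in 24 settings, with its dimmer probe at -0.64. Cxcl10 at -1.36 (SE 0.95) and Timp2 at 0.69 (SE 0.52, dimmer probe 0.06) were the ends of the list and did not pass. In Atm-/- veh against WT veh they were Spp1 at -0.85 and Timp1 at 0.69, also without a call. Among nuclear and lysosomal markers 2 of 20 rose and none fell. Glb1, the lysosomal galactosidase behind the senescence stain, rose by 0.33 (adjusted p = 0.0268, called in 17 settings), with a dimmer probe at 0.03, and H2ax, the histone phosphorylated at DNA breaks, rose by 0.43 (SE 0.08, adjusted p = 0.00894, called in 23 settings). Tert at -1.11 (adjusted p = 0.112) was the lowest of this list in Atm-/- NR against Atm-/- veh, and at 1.24 (adjusted p = 0.238) the highest in Atm-/- veh against WT veh, where Cbx5 at -0.25 was the lowest. The dimmer Tert probe differed by 0.14 and 0.15 in these comparisons, so that the probes had opposite signs in the first. The dimmer Cbx5 probe, which did not enter the counts, differed by -0.35 in Atm-/- veh against WT veh. In Atm-/- NR against Atm-/- veh it differed by 0.41 (limma, adjusted p = 0.0423).

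Without the 4 arrays against the labelled sex, 0.693% of named genes were called higher and 0.813% lower, and the lists kept 1 call among the regulators of p53 (Kmt5a, adjusted p = 0.0459), 1 in the CDK and RB list (E2f4, 0.0422) and 1 among the secreted factors (Tgfb1, 0.0438). Cdkn1a and Trp53 were called in that fit too.

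**Figure D5:**
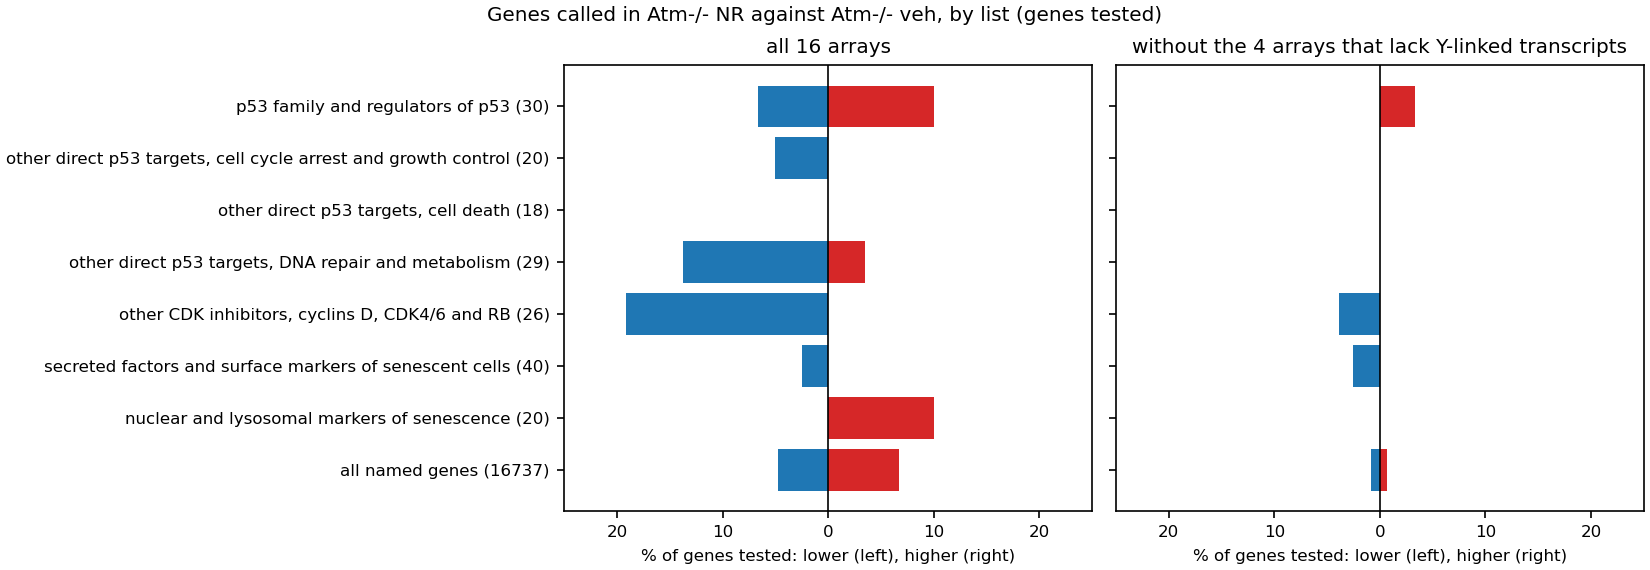
Percent of tested genes of each list (y axis, number tested in brackets) called lower (blue, to the left) or higher (red, to the right) in Atm-/- NR against Atm-/- veh, with all 16 arrays (left) and without the 4 arrays against the labelled sex (right). The lowest bar gives all 16737 named genes, and the CDK and RB list has the largest share called lower of the 7 lists, 19.2% with all arrays.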

How the data were processed

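Total RNA from each mouse was labelled with Cy3 and hybridised to a 1-colour Agilent array designed on build mm9. The study discarded samples of low RNA integrity. The deposited scanner files hold spot intensity from Agilent Feature Extraction 12.0.3.1, background subtracted but not normalised between arrays. The value table deposited by the authors holds a z-score per spot, and quantile normalisation, log and scaling of the scanner values gave these scores to within 0.0076. The scores served only as an alternative.

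Log2 processed signals of kept probes were quantile normalised, spots marked as outliers left out and spots of a probe averaged. Values given for probes not kept come from the same steps over all non-control probes. A probe was kept where a share of 0.5 or more of its spots passed Agilent's call of well above background on all 4 arrays of a group, in 1 or more groups (37253 of 56605 probes, after 788 with a missing value were left out). Accessions were matched to symbols in RefSeq (GRCm38.p6) for 32994 probes. limma 3.58.1 (R 4.3.3) fitted 4 group means with 12 residual degrees of freedom, and Benjamini-Hochberg adjustment was over all kept probes, with calls under 0.05. Intervals are 95% and unadjusted.

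Each array is a separate mouse, and the number of arrays limits the precision. The members, the 7 pathway lists and the cell type lists were chosen with earlier results of these data known. Named were all members, Atm, the sex-linked genes, each list gene called in any comparison, the largest rise and fall of each list in Atm-/- veh against WT veh and Atm-/- NR against Atm-/- veh, and the genes most correlated with Cdkn1a and Trp53. Alternatives were the scaling, normexp with an offset of 50, the z-scores, the filter, the mean over probes, arrays left out with the kept probes fixed, the replicate number as a block, only the arrays compared, the methods' t-test and the methods' rule. The rule was run on the probes kept here and without its condition on average signal, so its calls need not be those of the study. List counts under other settings were added after the data were seen. The scripts were tested on simulated data.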

Additional observations from a re-analysis of the deposited data

Results flagged for a closer look

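In 40 groups of 4 arrays, 1 for each member and group, 4 held an array whose gap to the nearest other as a share of the group's range exceeded Dixon's 95% critical value, and chance flags about 1 in 20 such groups. Of these arrays, 3 are WT veh 4, the array with the high choroid plexus list: Bbc3 was at 11.58 against 11.93 to 11.97 on the other WT veh arrays (gap over range 0.907), Sesn2 at 11.63 against 12.10 to 12.19 (0.844) and Plk2 at 9.53 against 8.76 to 8.87 (0.858). Plk2 was also apart on Atm-/- veh 4, at 8.39 against 8.62 to 8.66 (0.839). The part of the choroid plexus signal in the values of WT veh 4 was not tested. The Cdkn1a value of Atm-/- veh 3 did not exceed the critical value. Outside the tested probes, the Cdkn2a probe A_51_P144813 was well above background on Atm-/- NR 3 alone, at 7.48 (normalised log2 signal), with the kept Cdkn2a probe at 4.29 and not well above background on the same array. The first value comes from a normalisation over all non-control probes and the second from one over kept probes, so they are not on exactly the same scale.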

How the results depend on the processing

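The call of 2 members in Atm-/- NR against Atm-/- veh became 1 (Trp53) with only the arrays of the groups compared in the fit, and 0 to 2 with each array left out. It stayed at 2 with the other scalings, filters and probe choices, the z-scores and the methods' rule without its condition on average signal. Before adjustment, the methods' t-test gave p of at most 0.05 for Trp53, Cdkn1a and Sesn2, and for 10019 of all 37253 probes. After Benjamini-Hochberg adjustment the methods' t-test called 2, but these were Trp53 (adjusted p = 0.0368) and Sesn2 (adjusted p = 0.0309), with Cdkn1a at an adjusted p of 0.164. Its total over all probes was similar to that of the main fit. No member was called in the other comparisons under any setting except the methods' t-test in WT NR against WT veh, where 1 (Cdkn1a) had p of at most 0.05 before adjustment. So did 2476 of all 37253 probes, and this count is not read as a result about the members. All probes called in Atm-/- NR against Atm-/- veh numbered 3366, but 438 without the 4 arrays against the labelled sex, 1285 under the methods' rule, 1553 with 1 mean value per gene, which tests fewer features, and 862 to 4405 with each array left out. In all, 862 of the 892 member differences computed under alternatives kept their sign and side of the threshold. The others lost a call or turned their sign. In Atm-/- NR against Atm-/- veh, Gdf15 was at -0.15 with scaling to the 75th percentile, -0.025 on the z-score scale, -0.083 with no filter and -0.15 with probes detected on all 16 arrays. In Atm-/- veh against WT veh, Cdkn2a was at 0.049 with that scaling and at -0.46 in the main fit, on a probe near background that was kept through Atm-/- veh alone. In WT NR against WT veh without the 4 arrays, Cdkn2b was at -0.11 (0.28 with all arrays) and Plk2 at 0.010 (-0.29 with all arrays). With single arrays left out, Atm-/- veh against WT veh gave Bbc3 at -0.11 to 0.068 and Sesn2 at -0.0024 to 0.18. Atm-/- NR against Atm-/- veh gave Mdm2 at -0.0079 to 0.065 and Gdf15 at -0.20 to 0.13. Atm-/- NR against WT NR gave Cdkn1a at -0.10 to 0.0019 and Gdf15 at -0.59 to 0.19, and the genotype average gave Trp53 at -0.10 to 0.034. The cause of these changes was not tested. No pairing of samples by the replicate numbers was seen (4 of 16 correlations of same-numbered arrays were over 0.1, and 2 of 16 arrays correlated best with their own number). With 4 arrays in a group, these correlations cannot exclude a pairing. With the number as a replicate block, 3140 probes were called in Atm-/- NR against Atm-/- veh and Cdkn1a stayed at -1.13, and no call among the members changed. A slide block could not be fitted for the genotype comparisons and leaves the NR comparisons as they are. Probes near background, Cdkn2a above all, limit what these arrays can show.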
